A study of Rattus norvegicus with 12 samples.

Results

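Matricellular proteins are secreted proteins that sit in the extracellular matrix and signal to cells instead of holding tissue together. The genes of 9 such proteins were followed in the cerebral cortex of rats after embolic stroke: osteopontin (Spp1), thrombospondins 1 and 2 (Thbs1, Thbs2), the CCN proteins CYR61 and CTGF (Ccn1, Ccn2), SPARC and its relative hevin (Sparc, Sparcl1), periostin (Postn) and fibronectin (Fn1). They were picked by gene symbol, and all 9 were among the 17268 genes of the count table. The 12 RNA sequencing libraries came from adult male Sprague Dawley rats, with 3 libraries in each of 4 groups. Sham rats had the neck surgery without a clot, and Model rats had a blood clot from a donor rat injected into the middle cerebral artery. The rt-PA rats had the same stroke and received 10 mg/kg recombinant tissue plasminogen activator, a clot-dissolving drug, at 6 h, later than its usual window. The rt-PA+Acu rats received the same drug at the same time and also acupuncture at the Shuigou (GV26) and Neiguan (PC6) points at 2 h. The labels place the PC6 needle on the left and the study's methods on both sides. The time of tissue collection for sequencing is not given in the sources used here, and no group had acupuncture without rt-PA or a sham needling.

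After a stroke, matricellular proteins are made by macrophages, microglia, reactive astrocytes, vascular cells and fibroblasts, and part of them also arrives with platelets and plasma. Most act through integrins, the cell surface receptors of the matrix, and through CD44, CD47 or syndecans. Their genes respond to injury in different ways. Ccn1 and Ccn2 are quick-response genes that are driven by mechanical and serum signals through the YAP-TEAD and SRF pathways, while hevin is made by resting astrocytes and helps to build synapses. Fibronectin is a structural matrix protein that is usually grouped beside the matricellular proteins, not among them.

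The promoter windows of the genes with the largest changes or with shared motifs are shown because Thbs1, Ccn1 and Ccn2 each hold a match to the TEAD motif, and Spp1, with the largest change, holds none. Each window runs from 250 bases before to 50 bases after the gene start, 5′ to 3′ on the strand of the gene, from RefSeq on build GRCr8, which is not the build of the counts. Capitals mark GGAATG or its reverse complement CATTCC.
Spp1, chr14:5619755-5620054, minus strand: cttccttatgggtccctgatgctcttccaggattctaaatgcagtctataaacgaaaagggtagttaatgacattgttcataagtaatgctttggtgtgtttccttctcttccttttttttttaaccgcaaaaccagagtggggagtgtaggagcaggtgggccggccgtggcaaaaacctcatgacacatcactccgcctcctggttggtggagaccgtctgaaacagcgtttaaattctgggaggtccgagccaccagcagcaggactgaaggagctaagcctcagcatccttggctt
Thbs1, chr3:125510000-125510299, plus strand: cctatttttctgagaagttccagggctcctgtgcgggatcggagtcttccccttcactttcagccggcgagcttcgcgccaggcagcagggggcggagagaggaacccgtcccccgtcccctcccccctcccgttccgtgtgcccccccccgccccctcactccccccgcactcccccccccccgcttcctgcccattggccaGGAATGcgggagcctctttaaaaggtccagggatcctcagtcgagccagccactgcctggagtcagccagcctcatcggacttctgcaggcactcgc
Ccn1, chr2:237225640-237225939, minus strand: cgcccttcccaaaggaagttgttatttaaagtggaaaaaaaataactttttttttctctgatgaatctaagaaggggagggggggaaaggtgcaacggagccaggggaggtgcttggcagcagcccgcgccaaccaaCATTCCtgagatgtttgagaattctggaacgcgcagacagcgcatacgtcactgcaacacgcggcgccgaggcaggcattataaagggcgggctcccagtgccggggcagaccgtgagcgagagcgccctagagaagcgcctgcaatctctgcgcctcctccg
Ccn2, chr1:22624565-22624864, minus strand: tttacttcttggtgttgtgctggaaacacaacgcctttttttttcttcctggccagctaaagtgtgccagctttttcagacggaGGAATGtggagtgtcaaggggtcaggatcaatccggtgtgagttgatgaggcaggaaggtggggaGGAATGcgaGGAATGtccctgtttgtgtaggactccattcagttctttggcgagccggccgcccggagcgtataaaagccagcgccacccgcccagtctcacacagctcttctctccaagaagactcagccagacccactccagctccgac
The motif was found 3 times in the window of Ccn2, with first bases 166, 101 and 92 bases before the start. It was found once in those of Thbs1 (47 bases before), Ccn1 (113 bases before) and Sparc (33 bases before). It was not found in those of Spp1, Sparcl1 and Postn, and the table holds 7 of the 9 members. Of all 33469 windows of 300 bases, 14.2% held it on either strand. The TATA box letters TATAAA stood in the windows of Spp1, Ccn1, Ccn2 and Postn, against 14.2% of all windows. The letters of the AP-1 motif TGANTCA (7.33% of all windows), the CRE motif TGACGTCA (1.83%) and the SRF CArG box (1.64%) were in none of the 7 windows, and no match overlapped another. A match describes the letters of the window only, and no binding was measured.

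Total counts per library lay between 11678450 and 13616935, and 3 counts in a library stood for 0.22 to 0.257 counts per 1000000 counts (CPM). All levels below are CPM scaled by edgeR's TMM factors, and they compare a gene between libraries, not genes with each other. A gene was counted as a differentially expressed gene (DEG), or called, when edgeR's quasi-likelihood test gave an adjusted p under 0.05 and the absolute log2 fold change was over 1. The libraries came from different rats, 1 each, and the labels name no batch. At 10 of 12745 genes Model replicate 3 lay inside the Sham range while the other 8 stroke libraries lay beyond it by over 1.5-fold on the same side, against 0 genes for Model replicates 1 and 2 and for each rt-PA library. For rt-PA+Acu replicates 1, 2 and 3 such genes numbered 37, 16 and 1. No member was among these genes, and for Spp1, Thbs2 and Fn1 values without Model replicate 3 and with it as the only Model library are given. In bulk tissue, fewer cells of a type and less RNA per cell cannot be told apart.

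**Figure D1:**
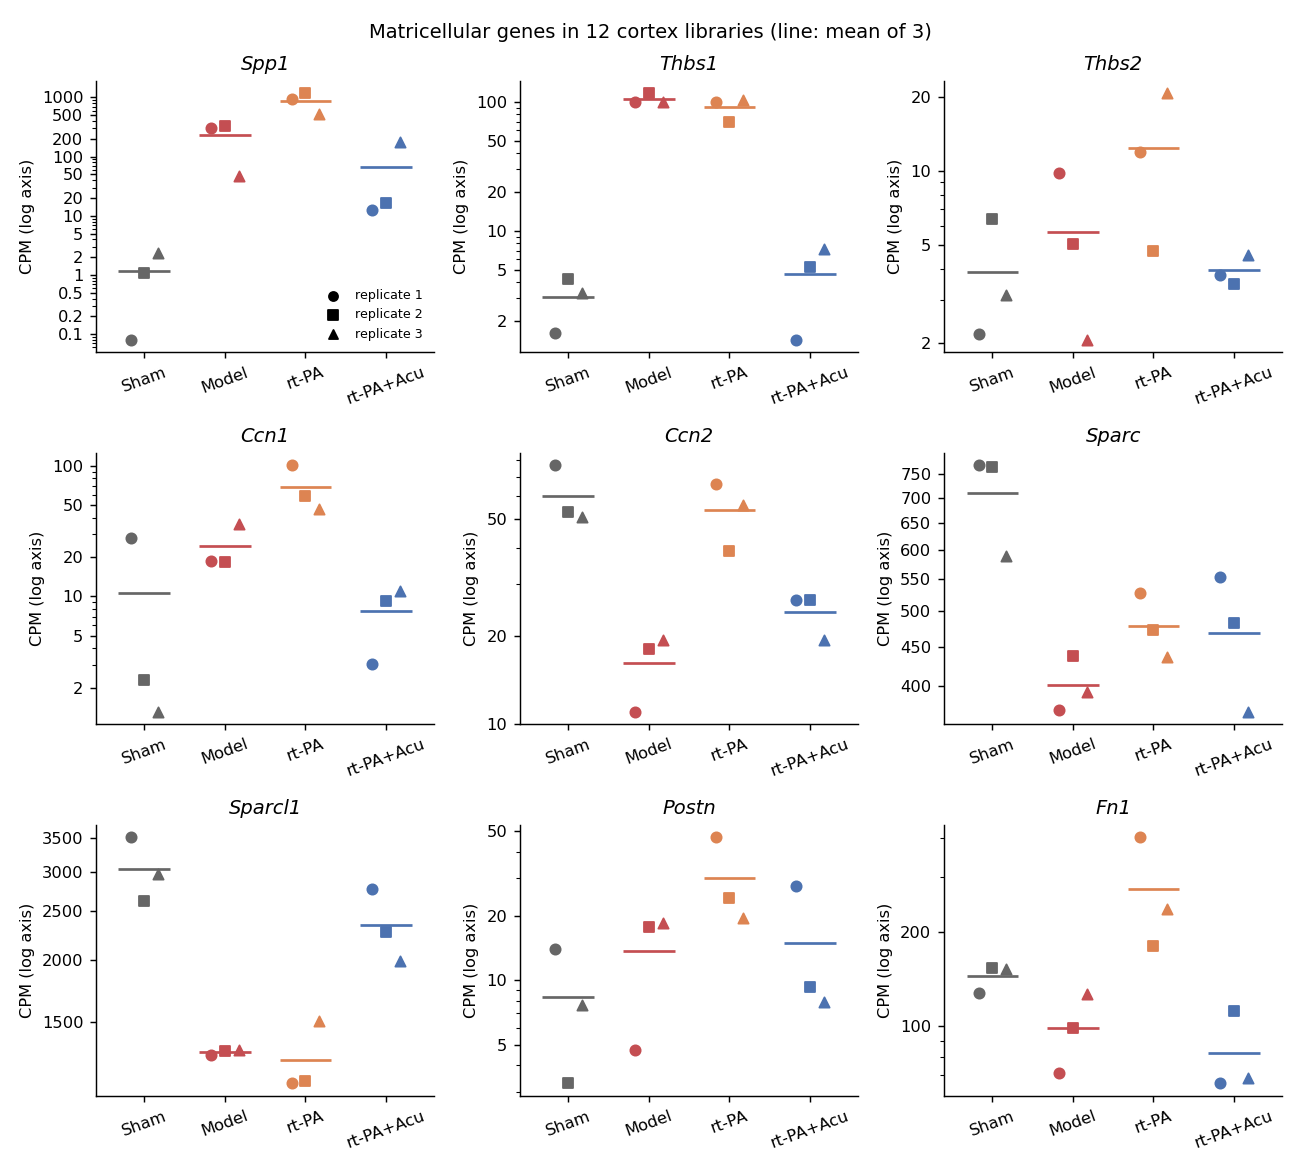
CPM on a log axis of each of the 9 genes in the 12 libraries, by group, with a symbol shape for each replicate number and the mean of 3 libraries as a line. Spp1 and Thbs1 were high in Model and rt-PA, Sparcl1 was low there, and Ccn2 and Fn1 were higher in each rt-PA library than in each Model and each rt-PA+Acu library.

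Spp1 encodes osteopontin, a phosphoprotein that binds integrins and CD44 and is made by macrophages and activated microglia. It was nearly silent in Sham, with 0.0809, 1.07 and 2.36 CPM in replicates 1, 2 and 3, from 1, 14 and 27 counts. In Model it stood at 308, 328 and 47.4 CPM, and in rt-PA at 946, 1170 and 525 CPM. The Model library with the low value was replicate 3, and even this library lay far above the highest Sham library. In rt-PA+Acu the levels were 12.4, 16.7 and 174 CPM, so that replicate 3 stood apart from the other two and inside the Model range. Spp1 rose in Model vs Sham by a log2 of 7.64 (SE 0.95, adjusted p = 0.000327). With replicate 3 alone for Model, which is then assumed to vary like the Sham libraries, the rise was 5.36 (adjusted p = 0.00123), and without replicate 3 it was 8.12. Each rt-PA library lay above each Model library, yet edgeR gave the log2 difference of 1.95 (SE 0.64) a p of 0.0165 before and 0.393 after adjustment. With acupuncture Spp1 fell by 3.69 on the log2 scale relative to rt-PA alone (SE 1.00, adjusted p = 0.026). That call was lost without rt-PA replicate 1 or 2, or without rt-PA+Acu replicate 1 or 2, with adjusted p values of 0.0511 to 0.0707 and changes of -3.64 to -3.20. Without rt-PA+Acu replicate 3 it was -5.91. Against Sham, Spp1 was still higher in rt-PA+Acu by 5.89 (SE 1.30, adjusted p = 0.0423), but this call was lost without rt-PA+Acu replicate 2 or any Sham library, at adjusted p values of 0.051 to 0.18. Without rt-PA+Acu replicate 3 the difference from Sham was 3.64 (adjusted p = 0.0194), and over the 6 fits that left out a library it reached 6.84.

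Thrombospondins are large glycoproteins that bind CD36 and CD47 and restrain vessel growth, and thrombospondin 1 also activates latent TGF-beta. Thbs1 was low in Sham, at 1.62, 4.21 and 3.32 CPM. It reached 100, 116 and 99.7 CPM in Model and 100, 69.2 and 103 CPM in rt-PA. Model replicate 3, low in Spp1, was close to the other Model libraries in Thbs1, and the lowest of the 6 libraries was rt-PA replicate 2. In rt-PA+Acu it stood at 1.43, 5.23 and 7.19 CPM, which overlapped with Sham. Thbs1 rose by 5.11 (SE 0.26, adjusted p = 7.04e-06) in Model vs Sham. It fell by 4.28 on the log2 scale (SE 0.47, adjusted p = 0.00143) when acupuncture was added to rt-PA. Between rt-PA and Model the difference was -0.21 (SE 0.16, adjusted p = 0.722), and between rt-PA+Acu and Sham it was 0.60 (SE 0.57, adjusted p = 0.56).

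Thbs2, made mostly by fibroblasts and vascular cells, did not share this pattern. Its levels were 2.18, 6.36 and 3.15 CPM in Sham, 9.77, 5.07 and 2.07 CPM in Model, 11.9, 4.73 and 20.6 CPM in rt-PA and 3.79, 3.49 and 4.57 CPM in rt-PA+Acu. The groups overlapped except that each rt-PA library lay above each rt-PA+Acu library, by little in replicate 2. The difference was 0.54 (SE 0.57, adjusted p = 0.446) in Model vs Sham, and it was 0.94 without Model replicate 3 and -0.91 with replicate 3 alone. Relative to rt-PA alone, Thbs2 in rt-PA+Acu fell by 1.65 on the log2 scale (SE 0.49, adjusted p = 0.0348). Leaving out any 1 of the 6 libraries except rt-PA replicate 2 ended that call, with adjusted p values of 0.0519 to 0.11.

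The CCN proteins are integrin-binding proteins of wound repair, and Ccn1 and Ccn2 are close relatives. In Model vs Sham only Ccn2 was called, as lower. Between rt-PA and Model both differences were positive without a call by edgeR, and both genes were called lower when acupuncture was added to rt-PA. Ccn2 was at 76.7, 53.0 and 50.8 CPM in Sham and at 11.0, 18.0 and 19.3 CPM in Model. It was at 66.3, 39.1 and 55.9 CPM in rt-PA and at 26.4, 26.4 and 19.4 CPM in rt-PA+Acu. Sham and rt-PA thus overlapped, Model lay below both, and rt-PA+Acu lay between Model and Sham with its lowest library just above the highest of Model. Ccn2 fell by 1.9 on the log2 scale in Model vs Sham (SE 0.24, adjusted p = 0.000334). Ccn2 differed between rt-PA and Model by 1.75 (SE 0.26), with an unadjusted p of 0.000184, and the adjusted p was 0.132 from edgeR and 1.87e-07 from DESeq2. Against rt-PA alone, Ccn2 in rt-PA+Acu fell by 1.16 on the log2 scale (SE 0.22, adjusted p = 0.00756), and without rt-PA replicate 1 the change of -0.98 no longer reached the fold threshold. It was also lower in rt-PA+Acu than in Sham, by -1.32 (SE 0.19, adjusted p = 0.011), while rt-PA and Sham differed by -0.18 (SE 0.22, adjusted p = 0.52).

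Ccn1 was at 28.2 CPM in Sham replicate 1 and at 2.30 and 1.31 CPM in Sham replicates 2 and 3. The other groups had 18.8, 18.4 and 35.7 CPM in Model, 101, 58.6 and 46.5 CPM in rt-PA and 3.03, 9.15 and 10.9 CPM in rt-PA+Acu. The high Sham library lay among the Model libraries. Atf3, an injury-induced transcription factor and the gene whose pattern was nearest to that of Ccn1, was at 9.22 CPM in the same Sham library and at 0.459 and 0.437 CPM in the other two. Because Atf3 was picked by its correlation with Ccn1 over these same libraries, its values are no separate evidence on that library. Model vs Sham was 1.20 (SE 0.91, adjusted p = 0.291) with all libraries and 3.73 (adjusted p = 0.000856) without Sham replicate 1. From Model to rt-PA the difference was 1.5 (SE 0.35), with an unadjusted p of 0.00296, and the adjusted p was 0.32 from edgeR and 0.00207 from DESeq2. From rt-PA to rt-PA+Acu, Ccn1 fell by 3.15 on the log2 scale (SE 0.47, adjusted p = 0.00378), and this call held under all 13 alternatives. Against Sham, rt-PA+Acu differed by -0.46 (SE 0.99, adjusted p = 0.818), and by 2.08 (adjusted p = 0.158) without Sham replicate 1.

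SPARC and hevin share a calcium-binding module and bind collagen, and SPARC counteracts the synapse-building action of hevin. Sparcl1, the hevin gene, was at 3520, 2620 and 2970 CPM in Sham. It was at 1290, 1310 and 1320 CPM in Model, at 1130, 1140 and 1510 CPM in rt-PA and at 2770, 2270 and 1990 CPM in rt-PA+Acu. Model and rt-PA libraries lay below all Sham and all rt-PA+Acu libraries, and the Model libraries were within 1.02-fold of each other. Sparcl1 fell by 1.20 on the log2 scale in Model vs Sham (SE 0.12, adjusted p = 9.76e-05). Relative to rt-PA, Sparcl1 in rt-PA+Acu differed by 0.89 (SE 0.18, adjusted p = 0.00986), short of the fold threshold, which it passed without rt-PA+Acu replicate 3 (1.00) or rt-PA replicate 3 (1.04). Between rt-PA+Acu and Sham it differed by -0.38 (SE 0.17, adjusted p = 0.24).

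Sparc was at 771, 767 and 589 CPM in Sham, 373, 438 and 393 CPM in Model, 527, 473 and 436 CPM in rt-PA and 553, 483 and 371 CPM in rt-PA+Acu. All 9 stroke libraries lay below the lowest Sham library, also those of rt-PA+Acu. In Model vs Sham the difference was -0.81 (SE 0.12, adjusted p = 0.000799), and in rt-PA vs Sham -0.58 (SE 0.13, adjusted p = 0.00598), both under the fold threshold. Between rt-PA+Acu and rt-PA it was -0.03 (SE 0.16, adjusted p = 0.895), and between rt-PA+Acu and Sham -0.60 (SE 0.17, adjusted p = 0.0882). So where the mean of Sparcl1 in rt-PA+Acu was 2340 ± 399 CPM (SD, n = 3) against 1260 ± 215 in rt-PA, that of Sparc was 469 ± 92.1 against 479 ± 45.9. Spp1 and Sparcl1 stand near each other on the same chromosome of the RefSeq annotation, with Mepe, Ibsp, Dmp1 and Dspp, genes of bone and tooth matrix proteins of the osteopontin family, in order between them. In Model vs Sham Spp1 rose and Sparcl1 fell, and a link between position and level was not tested.

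Fn1 encodes fibronectin, which binds integrins, collagen and fibrin. Its levels were 128, 153 and 152 CPM in Sham and 70.8, 98.7 and 127 CPM in Model. They were 402, 181 and 237 CPM in rt-PA and 65.8, 112 and 68.6 CPM in rt-PA+Acu. The rt-PA libraries lay above all others, and the Model and rt-PA+Acu libraries lay below the Sham libraries, in Model replicate 3 by little. In Model vs Sham the difference was -0.54 (SE 0.19, adjusted p = 0.0416), under the fold threshold, with -0.17 (adjusted p = 0.336) for replicate 3 alone and -0.75 (adjusted p = 0.00314) without it. The rt-PA and Model groups differed by 1.47 (SE 0.32), with an unadjusted p of 0.00185, and the adjusted p was 0.296 from edgeR and 0.000377 from DESeq2. Fn1 fell by 1.74 on the log2 scale from rt-PA to rt-PA+Acu (SE 0.33, adjusted p = 0.00774), a call that held under all 13 alternatives. Against Sham, rt-PA differed by 0.91 (SE 0.26, adjusted p = 0.0188) and rt-PA+Acu by -0.81 (SE 0.20, adjusted p = 0.061).

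Postn encodes periostin, a TGF-beta-induced protein of fibroblasts. It was at 14.0, 3.29 and 7.69 CPM in Sham, 4.73, 17.8 and 18.5 CPM in Model, 46.9, 24.2 and 19.5 CPM in rt-PA and 27.5, 9.33 and 7.94 CPM in rt-PA+Acu. Each rt-PA library lay above each Sham and each Model library, and rt-PA+Acu replicate 1 lay inside the rt-PA range. Postn rose by 1.85 (SE 0.50, adjusted p = 0.0153) in rt-PA vs Sham, a call that was lost without Sham replicate 3 (adjusted p = 0.0556). With acupuncture added to rt-PA it differed by -1.02 (SE 0.52, adjusted p = 0.163), and by -1.81 (adjusted p = 0.025) without rt-PA+Acu replicate 1. The fibroblast and meningeal markers, 9 genes such as Col1a1, Dcn and Lum, summed to 325 CPM in that library against 196 and 170 CPM in the other two, and to 477 CPM in rt-PA replicate 1, the library with the most Postn and Fn1, against 144 and 356 CPM in the other rt-PA libraries. This sum does not stand for each of its genes, since the list held DEGs of both directions. Relative to rt-PA alone, the rt-PA+Acu group had 1 of the 9 called lower, while 2 were called higher. Relative to Sham, the rt-PA group had 2 called lower, while 3 were called higher. The part of fibroblasts and meningeal cells in the Postn and Fn1 values was not tested.

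**Figure D2:**
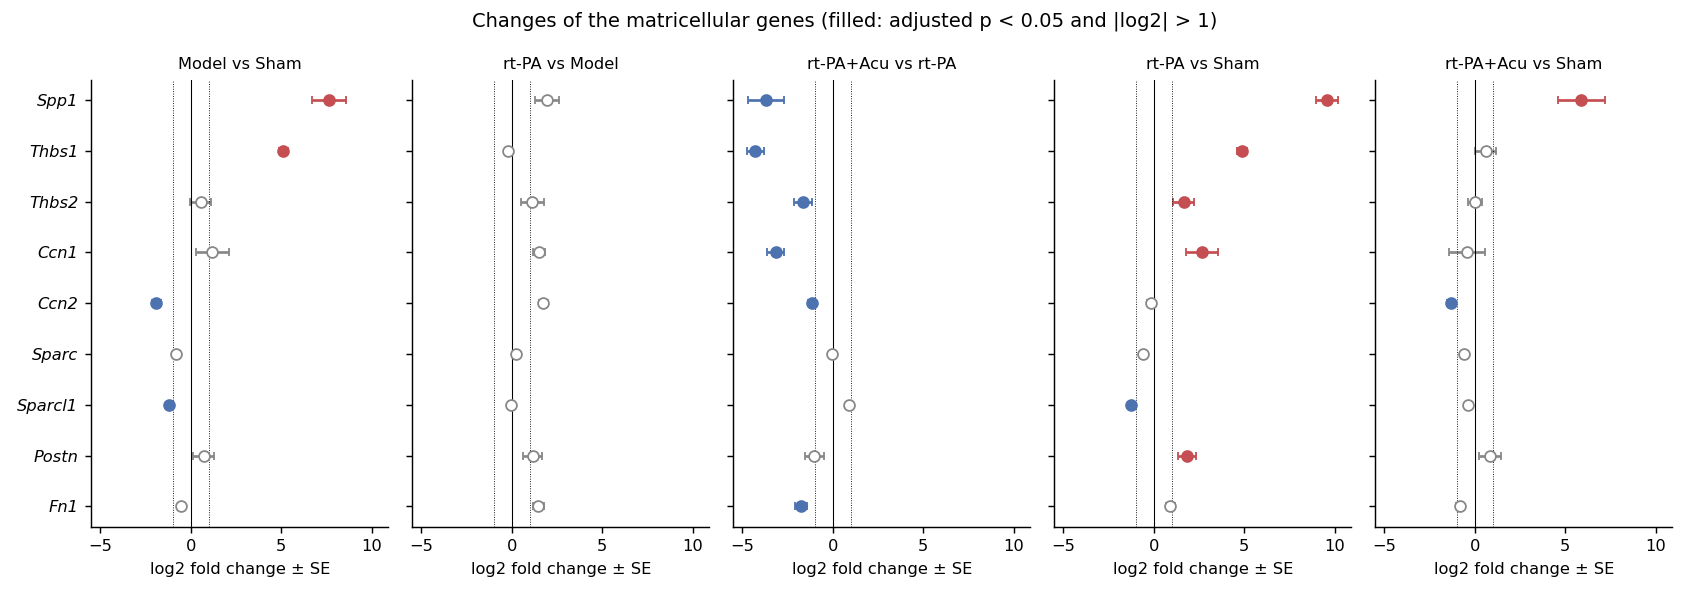
Log2 fold change with its SE (horizontal axis) for each of the 9 genes in 5 comparisons, with 3 libraries per group. Red and blue filled points are genes called higher and lower, open grey points are not called, and dotted lines mark the fold threshold. In the third panel 6 of the 9 genes were called lower, and in the second edgeR called 0.

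Counted over the 9 genes, Model vs Sham had 2 DEGs that were higher (Spp1 and Thbs1) and 2 that were lower (Ccn2 and Sparcl1). Of all 12884 genes tested, 9.43% were called higher and 12% lower, and the groups did not overlap at 6 of the 9 genes, against 63.7% of all genes. With a median log2 fold change of 0.54 over the 9 genes and 0.01 over all genes tested, the stroke did not move the set in 1 direction. The question of what delayed rt-PA adds to the stroke is put by rt-PA vs Model, in which edgeR called 0 of the 9 genes and 0% of all 12941 genes, while DESeq2 called 72 genes. At an unadjusted p under 0.05 with the same fold threshold, 4 of the 9 genes passed (Spp1, Ccn1, Ccn2 and Fn1), against 1.86% of all genes, and DESeq2 called 3 of the 9 at the adjusted p (Ccn1, Ccn2 and Fn1). All 3 rt-PA libraries lay above all 3 Model libraries at 5 of the 9 genes, these 4 and Postn, against 7.84% of all genes, and the median was 1.15 against 0 over all genes. The members were chosen with earlier results of these libraries known, so these shares describe them and are no test.

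Acupuncture added to rt-PA was compared with rt-PA alone. Of the 9 genes, 6 were called lower (Spp1, Thbs1, Thbs2, Ccn1, Ccn2 and Fn1) and 0 higher, where 8.16% of 12999 genes were called lower and 7.17% higher. The groups did not overlap at 7 of the 9 genes, against 51.2% of all genes, and the median over the 9 genes was -1.65 against 0. The number of calls was 3 without rt-PA replicate 1 (Thbs1, Ccn1 and Fn1) and 4 without rt-PA+Acu replicate 2. This comparison shares its 3 rt-PA libraries with rt-PA vs Model and rt-PA vs Sham. When rt-PA was compared with Sham, 5 genes were called higher and 1 lower, against 11% and 11.6% of 13023 genes. Thbs2 and Ccn1 were among these 5 with adjusted p values of 0.0385 and 0.0351, both calls were lost under 5 of 13 alternatives, and only Spp1, Thbs1 and Sparcl1 were called without Sham replicate 3. When rt-PA+Acu was compared with Sham, 1 gene was called higher (Spp1) and 1 lower (Ccn2), against 0.916% and 1.14% of 12775 genes.

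Other genes of the matricellular families, 20 of a list of 21, included DEGs in both directions. In Model vs Sham, 6 of the 17 tested were called higher and 4 lower, with a median of -0.16. Tgfbi, a TGF-beta-induced integrin ligand, rose from 2.61 to 59.7 CPM (log2 fold change 4.52, adjusted p = 9.35e-06). Ccn3, a CCN protein of neurons that counteracts Ccn2, fell from 107 to 11.9 CPM (log2 fold change -3.16, adjusted p = 1.69e-05), in the same direction as Ccn2. Dmp1, which lies between Spp1 and Sparcl1, rose from 0.458 to 3.6 CPM (adjusted p = 0.00189). Between rt-PA and Model 0 of 18 were called by edgeR, 3 had an unadjusted p under 0.05 (Mepe at -2.47, Tnc at 1.1 and Fstl1 at 0.94), and DESeq2 called 2 (Mepe and Tnc). Acupuncture with rt-PA had 3 of 18 called higher and 6 lower than rt-PA alone. Dmp1 was at least 11.4-fold lower, since each rt-PA+Acu library had at most 3 counts, Tgfbi changed by -3.61 and Tnc, the gene of tenascin C, by -3.18. The single call of 16 genes in rt-PA+Acu vs Sham was Ccn5, at 2.74 against 0.56 CPM (adjusted p = 0.0339).

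Receptors of these proteins, 19 of a list of 20, included some of the larger changes. In Model vs Sham 4 of 18 tested were called higher and 2 lower. Cd44, a receptor of osteopontin and hyaluronan, rose from 7.32 to 245 CPM (log2 fold change 5.07, adjusted p = 6.4e-06). Itga5, which pairs with beta 1 integrin as the fibronectin receptor, rose by 3.00, and Itgam, an integrin of myeloid cells, by 2.45. Between rt-PA and Model 0 of 18 were called by edgeR or DESeq2, and 8 had an unadjusted p under 0.05, led by Itga4 (0.96), Itga5 (0.72) and Stab1 (0.86). From rt-PA to rt-PA+Acu 2 were called higher and 5 lower, among them Itga5 (-3.70), Cd44 (-2.59) and Itgb3 (-1.68). Itga5 then stood at 3.44 CPM against 3.47 in Sham, whereas Cd44 at 45.5 CPM and Itgam at 43.7 CPM were still higher than in Sham, by 2.64 and 1.69 (adjusted p = 0.0335 and 0.043). Osteopontin and its receptor Cd44 were thus both called higher in rt-PA+Acu than in Sham, the Spp1 call with the limits given above.

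Among 15 TGF-beta genes, 5 were called higher and 0 lower in Model vs Sham, with a median of 0.50 against 0.01 over all genes. Ltbp1, which stores latent TGF-beta in the matrix, rose by 3.32 and Tgfb1, a TGF-beta ligand, by 2.39. Between rt-PA and Model 0 of 15 were called by edgeR or DESeq2, and 3 had an unadjusted p under 0.05, Eng (0.96), Tgfbr2 (0.48) and Ltbp2 (1.12). From rt-PA to rt-PA+Acu 1 was called higher and 6 lower, with -2.92 for Ltbp1 and -2.43 for Eng, a TGF-beta co-receptor of endothelial cells. Between rt-PA+Acu and Sham, 0 of 15 were called by edgeR or DESeq2, and 3 had an unadjusted p under 0.05, among them Eng (-0.85) and Smad7 (-0.41).

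All 20 genes of the YAP-TEAD and MRTF-SRF list, which holds regulators and targets of the pathways that act on Ccn1 and Ccn2, were tested in Model vs Sham, where 5 were called higher and 2 lower. Tead4, a TEAD factor, rose from 0.876 to 3.54 CPM, Tpm1 rose by 1.44, and Mrtfb, an SRF cofactor, fell by 1.27 on the log2 scale. Between rt-PA and Model 0 of 19 were called by edgeR, 5 had an unadjusted p under 0.05, led by Amotl2 (0.73), Lats2 (0.52) and Tagln (1.75), and DESeq2 called 1, Tagln. From rt-PA to rt-PA+Acu 5 of 18 were called lower and 1 higher, with -2.87 for Tead4, -1.78 for Tagln and -1.75 for Acta2, the actin of smooth muscle. Against Sham 2 of 18 were called in rt-PA+Acu, Acta2 (-1.76) and Ajuba (-1.12), both lower like Ccn2. These lists were described by their counts and medians without a set test.

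**Figure D3:**
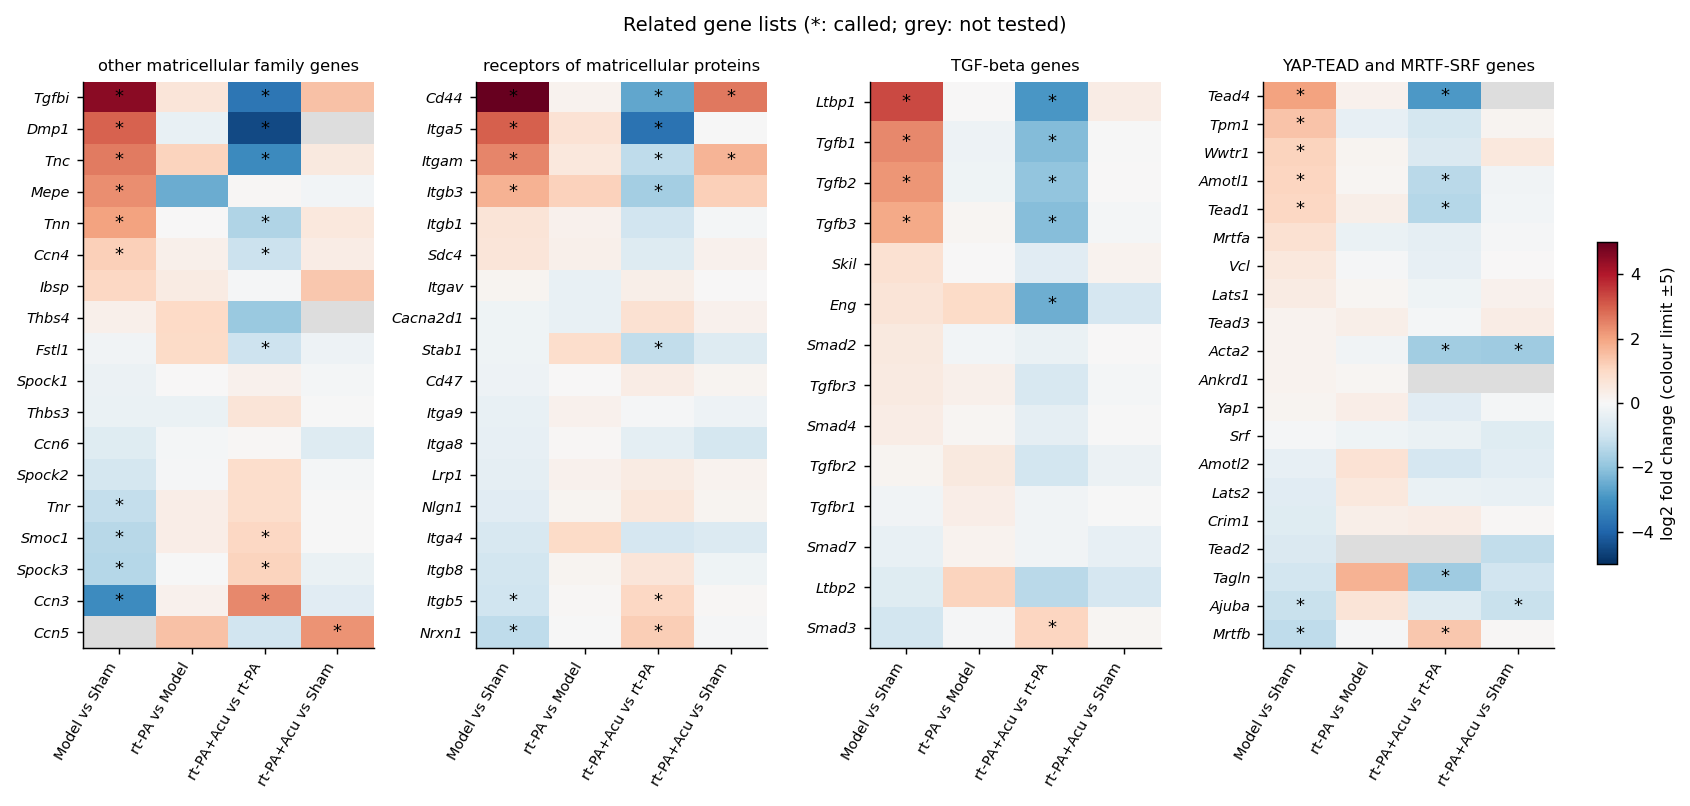
Log2 fold change (colour, blue lower and red higher, limited at ±5) of tested genes of 4 related lists in 4 comparisons, with 3 libraries per group and a star for genes called. Cd44, Itga5, Tgfbi and Tnc were called higher in Model vs Sham and lower when rt-PA+Acu was compared with rt-PA, and edgeR called no gene of the lists between rt-PA and Model.

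Markers of cell types that make these proteins also differed between the groups. The 9 neuronal markers, which mark cortex tissue, summed to 7880 to 8520 CPM in Sham, 5760 to 6040 in Model, 4470 to 5730 in rt-PA and 5510 to 8450 in rt-PA+Acu. Most of the lower sum in Model came from Camk2a, at 540 CPM against 2670 in Sham, while 4 of the 9 genes had a positive log2 fold change and the median was -0.04. The 8 choroid plexus markers, which mark other tissue, summed to 3.67 to 4.53 CPM in Sham, 12.6 to 22.5 in Model, 6.59 to 10 in rt-PA and 2.62 to 17.7 in rt-PA+Acu, and up to 4 of them were at 0 in a library. Their sum was thus higher in each Model and rt-PA library than in each Sham library. Only 2 of the 8 genes passed the filter in Model vs Sham, of which 1 was called higher and 1 did not rise. The 8 astrocyte markers summed to 6280 to 7300 CPM in Sham, 2350 to 2890 in Model, 2050 to 2850 in rt-PA and 3970 to 5520 in rt-PA+Acu, low in the same groups as Sparcl1. Of these 8 genes, 7 were called lower in Model vs Sham and 5 higher from rt-PA to rt-PA+Acu. The 7 of 9 endothelial markers in the table summed to 174 to 216 CPM in Sham, 228 to 437 in Model, 302 to 436 in rt-PA and 106 to 116 in rt-PA+Acu. In Model vs Sham 4 of these 7 genes had a positive log2 fold change, with 1 called higher and 1 lower. In rt-PA vs Sham 6 were positive and 2 called higher, and from rt-PA to rt-PA+Acu 4 were called lower. The 10 markers of infiltrating monocytes and macrophages summed to 70.6 to 130 CPM in Sham, 217 to 245 in Model, 350 to 412 in rt-PA and 104 to 119 in rt-PA+Acu. In Model vs Sham 4 of 9 tested were called higher and 0 lower. Between rt-PA and Model all 10 were positive, with a median of 1.55, of which edgeR called 0 and DESeq2 4. From rt-PA to rt-PA+Acu 8 of the 10 were called lower and 0 higher, with a median of -2.37. Within rt-PA+Acu, replicate 3, the library with the most Spp1, had a sum of these 10 genes of 104 CPM, against 115 and 119 in replicates 1 and 2. That library also had the lowest neuronal and astrocyte sums of its group, 5510 and 3970 CPM, and the highest choroid plexus sum, 17.7 CPM. The 7 homeostatic microglia markers summed to 511 to 630 CPM in Sham and lay between 383 and 464 after stroke. The 7 of 8 markers of phagocytic macrophages and microglia in the table, among them Apoe, which astrocytes also express, summed to 2230 to 2520 CPM in Sham and lay between 996 and 1630 after stroke. Apoe made up most of that sum, at 2090 CPM in Sham and 721 in Model. Of the 7 genes, 3 were called higher in Model vs Sham (Lgals3 by 5.34, Gpnmb by 3.66 and Cd68 by 2.66) and 2 lower, and the same 3 were called lower from rt-PA to rt-PA+Acu (-2.61, -1.41 and -2.28). Against Sham, 2 of the 7 were called higher and 2 lower in rt-PA+Acu.

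The 7 markers of pericytes and smooth muscle lay between 287 and 314 summed CPM in Sham and between 134 and 225 after stroke. Fibroblast and meningeal markers ranged from 213 to 368 in Sham and from 63.7 to 158 in Model, 144 to 477 in rt-PA and 170 to 325 in rt-PA+Acu. In Model vs Sham 4 of these 9 genes were called lower and 0 higher. Between rt-PA and Model 7 were tested, and all 7 were positive, with a median of 2.11. By edgeR 0 of the 7 were called, although 7 had an unadjusted p under 0.05, and DESeq2 called 2 (Col1a1 and Lum). The 6 platelet markers, of interest for Thbs1, summed to 2.83 to 5.36 CPM in Sham, 7.19 to 10.8 in Model, 5.09 to 9.71 in rt-PA and 3.03 to 3.40 in rt-PA+Acu, and up to 3 of them were at 0 in a library. The 8 neutrophil markers summed to at most 18.7 CPM in Sham and Model and 5.64 in rt-PA+Acu, and to 15.4 to 89.5 in rt-PA. Of 6 red blood cell markers 1 was in the table, at 0 to 3.56 CPM. The part of these cells in the levels of the 9 genes was not tested.

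**Figure D4:**
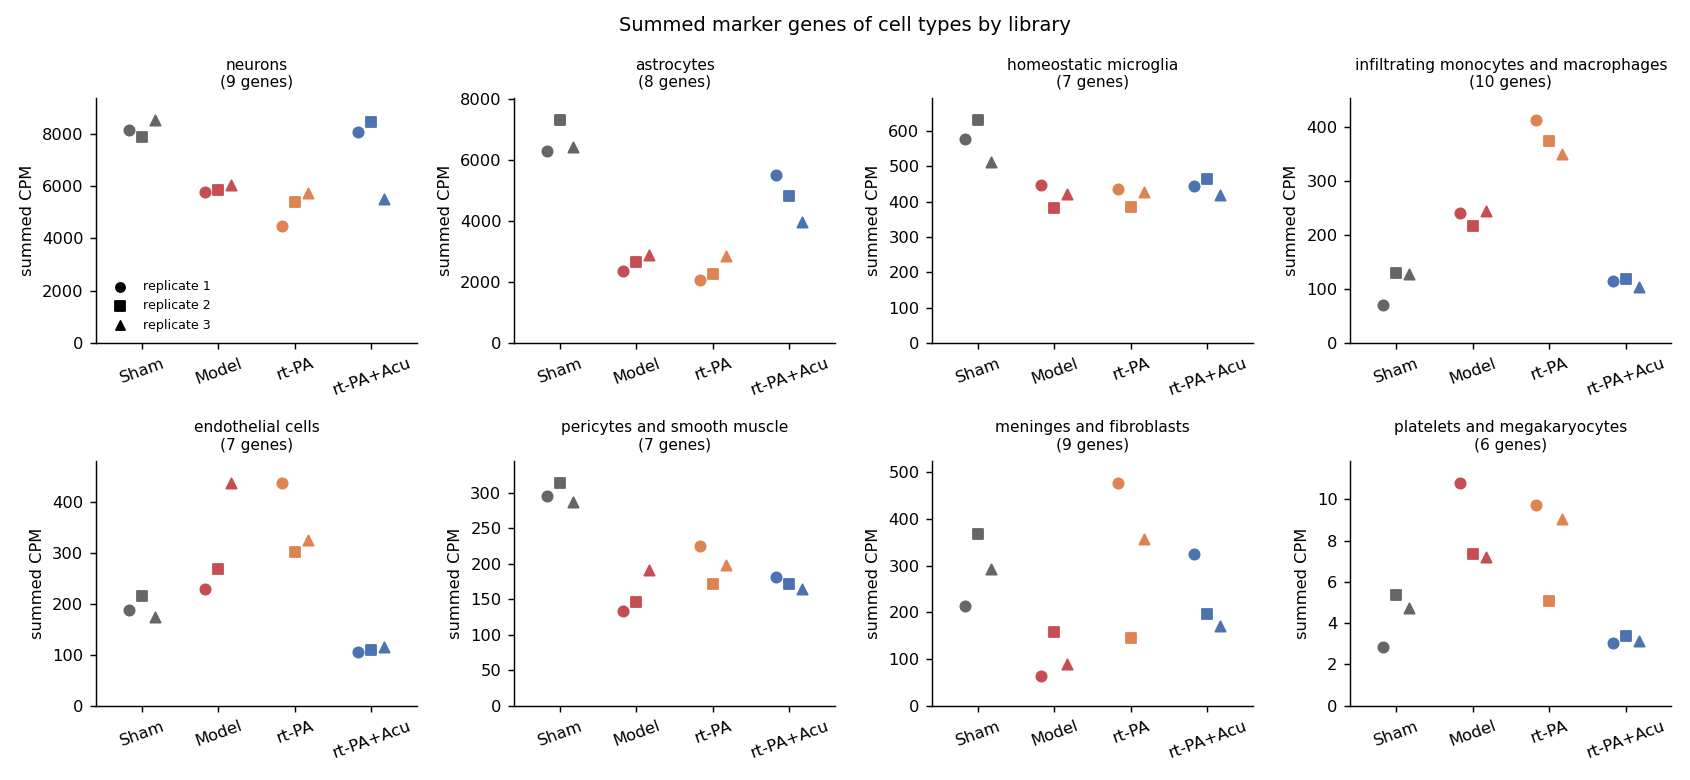
Summed CPM (vertical axis from 0) of 8 lists of cell type markers in each of the 12 libraries, by group, with a symbol shape for each replicate number. Summed astrocyte markers were lower in Model and rt-PA than in Sham and rt-PA+Acu, and summed endothelial and monocyte markers were higher there. Of the 7 endothelial genes, 1 was called higher and 1 lower in Model vs Sham.

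The genes whose log2 CPM followed each member most closely over the 12 libraries were taken from 12745 genes with a mean of at least 1 CPM. The libraries fall into separate groups, so these Pearson correlations mostly reflect the group levels and are a description without a test. For Spp1 the nearest genes were Hmgb2l1, Psmd14 and Il13ra1 (0.985, 0.976 and 0.973), and for Thbs1 Mcfd2, Npy and Riok1 (0.988, 0.988 and 0.986). The genes nearest to Sparcl1 that are given here were Carmil1 and Ybx2 (0.983 and 0.978). For Sparc they were Snapin, Ctsh and Mbd3 (0.955, 0.931 and 0.924). Ccn1 was nearest to Atf3, Mob3c and Tes (0.931, 0.918 and 0.913), while Ccn2 was nearest to Zfp366, Ajuba and Adamts10 (0.885, 0.873 and 0.858). Fn1 was nearest to Heg1, Hspa12b and Pdgfrb (0.955, 0.934 and 0.923), the last a receptor of pericytes. The nearest gene to Thbs2 was Cbx1 (0.891) and that to Postn was Tmem268 (0.888).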

How the data were processed

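RNA from the cerebral cortex of 12 rats, in 4 groups of 3 by their deposited labels, was sequenced. According to the study's methods, the authors aligned read pairs to the rat genome mRatBN7.2 with STAR and made a raw count table with Salmon on the Ensembl annotation. The submitters' processing notes list STAR 2.7.10a, Salmon 1.9.0 and featureCounts 2.0.1 without their roles. The adapters carried molecular identifiers, and whether these were used in counting is not given in the sources used here, so a limit given from counts holds for counting error alone. The deposited values are raw counts, whole numbers for each gene symbol, not normalized or pooled.

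The tests ran in R 4.3.3 (edgeR 4.0.16, DESeq2 1.42.0) and the plots in Python 3.11.15 (matplotlib 3.10.9). TMM factors over the 12 libraries, used for CPM, ranged from 0.9488 to 1.078. A fit of each comparison took its 6 libraries and the genes kept by filterByExpr, with edgeR's quasi-likelihood test and Benjamini-Hochberg adjustment over all genes tested. The SE is the log2 fold change divided by the root of the F statistic. Log2 CPM for correlations used a prior count of 2. Fits were also run on simulated counts in which 200 genes with a mean of at least 1 CPM were changed 4-fold. Genes with a lower mean were not among those changed, and the outcome is not reported here. All 9 members are named, and from other lists at most 3 genes per comparison: those called with the largest change or, with none called, the smallest p. Genes named outside this rule (neighbours of Spp1, Apoe and examples of marker genes) were chosen after values were seen. The members, lists and comparisons were chosen with earlier results of these data known. Alternatives were DESeq2, RLE factors, library size alone, other filters, 1 fit over 12 libraries, the replicate number as a block, other thresholds, and leaving out each library. Values of 2 genes that the naming rules pick are not reported here, and list totals were left as computed.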

Additional observations from a re-analysis of the deposited data

How the results depend on the processing

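For Model vs Sham the number of the 9 genes called stayed at 3 to 6 under every alternative, against 4, and between 4 and 5 when 1 library was left out. In rt-PA vs Model, edgeR called 0 of the 9 genes, also in the 6 fits that left out 1 library (0 to 0). Of the same 9 genes DESeq2 called 3, an unadjusted p gave 4, and DESeq2 with an unadjusted p, chosen after seeing the data, gave 5. Over all genes DESeq2 called 72 in that comparison against 0 in the main edgeR fit. Other edgeR fits called up to 3, the most without Model replicate 3. Between rt-PA+Acu and rt-PA the 6 calls became 3 to 6 without 1 library, and the genes called also changed. Without replicate 3 of either group, Thbs2 was lost and Sparcl1 was added as called higher. Without rt-PA+Acu replicate 1, Spp1 and Thbs2 were lost and Postn was added. Between rt-PA and Sham the 6 calls became 3 to 7. Between rt-PA+Acu and Sham the 2 calls became 1 with DESeq2, which gave Spp1 no p, 1 with at least 10 counts in every library, a filter that removes Spp1, and 1 to 2 without 1 library. Over all genes the 263 calls of that comparison were 426 with DESeq2 and 146, 82 and 133 without Sham replicates 1, 2 and 3. The cause was not tested. Single genes kept their side of the thresholds in 552 of their alternative fits, lost a call in 25 and gained a call in 12, and none of the called ones changed direction.

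Same-numbered libraries of compared groups had correlations of deviations from -0.144 to 0.163. Such values from 3 libraries a group cannot decide whether equal numbers mark matched rats, and the labels name no pairing. With the replicate number as a block, the counts of called genes were 4 for Model against Sham, 0 for rt-PA against Model, 7 for rt-PA+Acu against rt-PA (Postn added), 5 for rt-PA against Sham and 2 for rt-PA+Acu against Sham. Only between Model and Sham did each library correlate best with its own number. With 3 libraries a group, the widest relative spreads were those of Ccn1 in Sham (coefficient of variation 144%) and Spp1 in rt-PA+Acu (136%).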
